A study of Homo sapiens with 2 samples.

Results

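The 7 genes described here encode soluble hydrolases of the lysosome and were picked by name from the authors' deposited table, in which all 7 were found among 836 listed loci. They are IDUA, NAGLU and MAN2B1, which cut sugar chains, SMPD1 and LIPA, which cut lipids, and CTSC and CTSL1, which cut proteins. CTSL1 is the older symbol of CTSL. The 2 libraries were made from MiaPaCa, an established cell line of human pancreatic cancer, each from a stable pool selected with puromycin. The Scr control cells carried pGFP-V-RS-Scr, a plasmid with a scrambled hairpin, and the MYB-silenced cells carried pGFP-V-RS-shMYB, a plasmid with a short hairpin RNA against the transcription factor MYB. The labels give the Scr control the genotype MYB-overexpression, while the protocols name the hairpin and control plasmids only. With 1 library per group, values carry no error, no test was run, and a difference is one between these 2 libraries rather than between conditions.

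Lysosomes are acidic organelles in which about every class of macromolecule is broken down to reusable units. Their soluble hydrolases are made in the endoplasmic reticulum, tagged with mannose 6-phosphate in the Golgi and carried to the lysosome, and many of their genes are switched on by the transcription factor TFEB through a promoter element called CLEAR. Loss of single enzymes causes storage of their substrate, as in mucopolysaccharidosis, alpha-mannosidosis, Niemann-Pick disease and Wolman disease. In pancreatic cancer cells, lysosomes are known for supplying nutrients from autophagy and from engulfed protein, and secreted cathepsins for cutting matrix proteins.

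The lipid-cutting and the protein-cutting pair each held 1 gene that was higher and 1 that was lower in the MYB-silenced library, so the promoters of these 4 genes are shown to compare their letters. Each is the 250 bases before a RefSeq start (GRCh38.p14), written 5′ to 3′ on the gene's strand, with matches to the MYB core AACNG on either strand in capitals. SMPD1 lies at chr11:6390224-6390473 on the plus strand, LIPA at chr10:89251776-89252025 on the minus strand, CTSL1 at chr9:87725869-87726118 on the plus strand and CTSC at chr11:88337737-88337986 on the minus strand.
SMPD1: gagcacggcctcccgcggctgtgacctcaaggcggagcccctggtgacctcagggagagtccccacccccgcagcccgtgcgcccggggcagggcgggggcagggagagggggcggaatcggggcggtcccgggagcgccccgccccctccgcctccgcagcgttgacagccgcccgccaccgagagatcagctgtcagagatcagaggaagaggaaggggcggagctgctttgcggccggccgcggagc
LIPA: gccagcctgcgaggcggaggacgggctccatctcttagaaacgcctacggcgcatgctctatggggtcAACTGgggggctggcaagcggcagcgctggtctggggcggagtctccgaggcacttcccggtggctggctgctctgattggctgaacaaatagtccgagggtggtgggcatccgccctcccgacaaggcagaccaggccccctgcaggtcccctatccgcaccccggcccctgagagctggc
CTSL1: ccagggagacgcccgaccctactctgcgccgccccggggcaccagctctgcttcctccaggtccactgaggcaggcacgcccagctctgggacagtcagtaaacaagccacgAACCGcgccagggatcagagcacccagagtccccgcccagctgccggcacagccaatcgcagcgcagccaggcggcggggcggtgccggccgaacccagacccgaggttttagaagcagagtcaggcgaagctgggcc
CTSC: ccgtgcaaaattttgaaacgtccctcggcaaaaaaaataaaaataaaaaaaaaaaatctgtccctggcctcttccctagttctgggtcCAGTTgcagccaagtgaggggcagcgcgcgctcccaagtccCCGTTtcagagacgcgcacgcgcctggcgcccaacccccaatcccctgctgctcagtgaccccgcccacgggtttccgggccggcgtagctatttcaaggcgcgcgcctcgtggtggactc

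The MYB core was found in 0 places before SMPD1, in 1 place each before LIPA and CTSL1 and in 2 places before CTSC. Before IDUA it was found in 2 places, and before MAN2B1 in 0. It thus occurred before 4 of the 6 members with a promoter sequence, 2 of them higher and 2 lower in the MYB-silenced library, and in 70.6% of all 35116 RefSeq promoter windows of the same length. Every motif was searched on both strands, and a match describes letters in this window and is not a binding site. For NAGLU no promoter sequence was used. LIPA has 3 RefSeq start sites and IDUA has 2, and the one that best matched the span of the deposited locus was taken.

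The E-box core CACGTG, which lies in the middle of the CLEAR element, was found before 0 of the 6 members and in 6.34% of all windows. The looser pattern GTCANNTG, which can overlap the E-box core, occurred before IDUA as GTCACATG, 47 bases before the start, and before LIPA as GTCAACTG, 185 bases before the start, where it overlaps the MYB core. That pattern was present in 11.3% of all windows. The GC box GGGCGG was found before all 6 members, with 6 matches for SMPD1, 3 for CTSL1, 2 each for LIPA and MAN2B1 and 1 each for IDUA and CTSC, against 42.6% of all windows with at least 1. The 6 sequences were 58.4% to 75.2% GC, and the median of all windows was 58%.

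As a check of which library is which, MYB had 981 FPKM under the label Scr and 0.554 FPKM under the label shMyb, 0.0564% as much. In the control library MYB ranked 1 among the 836 loci. Whether that level goes with the genotype label MYB-overexpression was not tested. FPKM scales fragments to transcript length and to mapped fragments but not to GC content, so levels can be compared between genes only roughly. The table lists loci with an unadjusted p-value of the authors of up to 0.04995. Genes above that limit were not analysed here. Of the 836 loci, 516 were lower and 320 higher in the MYB-silenced library, or 61.7% and 38.3%, with a median log2 ratio of -0.80. Marker genes gave little check of the cell type. None of the 8 epithelial, 12 blood cell or 7 acinar markers chosen was listed, and of 12 mesenchymal markers only DES was, at 1.97 and 0.0780 FPKM. Keratin genes outside the chosen markers did have rows and were lower. KRT13 was at 6.06 and 2.95 FPKM, KRT16 at 2.85 and 0.239 FPKM, and KRT80 at 9.94 and 5.37 FPKM. In bulk RNA, fewer cells of a type and less RNA per cell cannot be told apart.

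The 5 enzymes IDUA, NAGLU, MAN2B1, SMPD1 and CTSL1 were higher in the MYB-silenced library, and LIPA and CTSC were lower. The differences were of similar size within each direction, between 1.87-fold and 2.58-fold higher and down to 58.6% and 54.7% of the control. All 3 glycan-cutting enzymes were higher, while the lipid-cutting and the protein-cutting pair each held 1 higher and 1 lower gene. Because the members were taken from a table selected on this same contrast, the 5 higher members stand beside 38.3% and the 2 lower members beside 61.7% of listed loci as a description only.

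**Figure D1:**
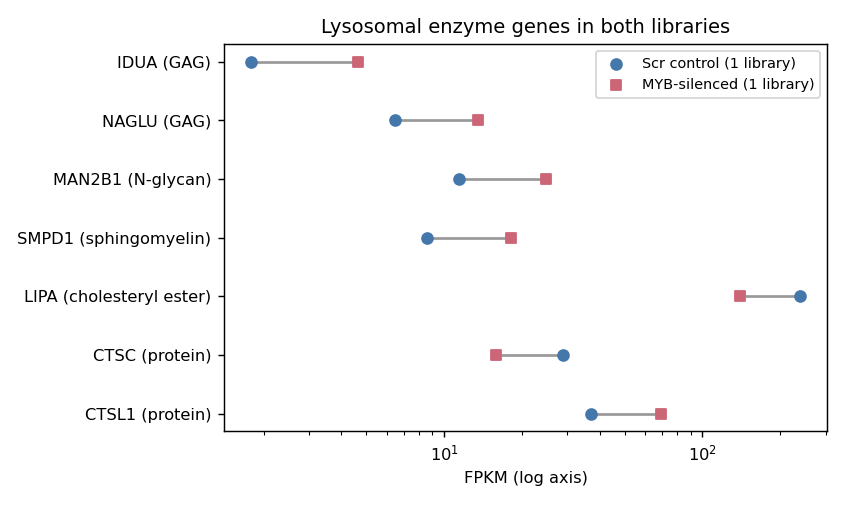
FPKM of the 7 enzymes on a log axis, with circles for the Scr control library and squares for the MYB-silenced library, 1 library each, and substrates in brackets (GAG, glycosaminoglycan). Squares lie to the right of the circles for 5 genes and to the left for LIPA, from 238.6 to 139.8 FPKM, and CTSC, from 28.98 to 15.8 FPKM.

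Among the glycosaminoglycan-cutting enzymes, IDUA encodes alpha-L-iduronidase, which removes iduronic acid from dermatan sulfate and heparan sulfate and is missing in Hurler syndrome. IDUA had 1.79 FPKM in Scr control RNA and 4.63 FPKM with MYB silenced. It had the lowest level of the 7 genes in both libraries and the highest linear ratio, 2.58. Its log2 ratio, computed as log2(FPKM + 0.5) of MYB-silenced minus Scr control, was 1.16, which understates the difference of so weak a gene. Without the pseudocount the log2 ratio was 1.37. The authors' deposited table gives it a p-value of 0.0416, the nearest to the table's limit among the 7.

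The IDUA locus (hg19, chromosome 4, 972863 to 998541) spans 25679 bases, against 17568 bases for the IDUA gene in RefSeq (GRCh38.p14). In RefSeq, SLC26A1, a sulfate transporter gene, and LOC124900646 overlap IDUA, and neither has a row of its own in the table. No label says whether reads were counted by strand, so reads of these genes and of IDUA cannot be told apart and the IDUA value is uncertain.

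NAGLU encodes alpha-N-acetylglucosaminidase, which acts on heparan sulfate and is missing in Sanfilippo syndrome type B. NAGLU, at chromosome 17, 40687951 to 40696466 (hg19), had 6.46 FPKM in Scr control RNA and 13.5 FPKM with MYB silenced. It was the member just above the 2-fold line, with a log2 ratio of 1.01 and an authors' deposited table p-value of 0.01665. Relative to IDUA its level was 3.60 times higher in the control and 2.91 times higher after silencing, so the pair kept its order.

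For N-linked glycans, MAN2B1 encodes the lysosomal alpha-mannosidase that trims mannose from oligosaccharides of degraded glycoproteins. MAN2B1, at chromosome 19, 12757322 to 12777591 (hg19), had 11.5 FPKM in Scr control RNA and 24.8 FPKM with MYB silenced. Its log2 ratio was 1.08, and the authors' deposited table gives it the smallest p-value of the 7, 0.00355. The level of MAN2B1 relative to NAGLU was 1.77 in the control and 1.84 after silencing, so these enzymes differed between the libraries by nearly the same factor. The 3 glycan-cutting enzymes summed to 19.7 FPKM and 42.9 FPKM in that order.

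Among the lipid-cutting enzymes, SMPD1 encodes acid sphingomyelinase, which cuts sphingomyelin to ceramide and phosphocholine and is missing in Niemann-Pick disease types A and B. SMPD1, at chromosome 11, 6411644 to 6416228 (hg19), had 8.59 FPKM in Scr control RNA and 18.1 FPKM with MYB silenced. Its log2 ratio was 1.03, with a p-value of 0.00995 in the authors' deposited table. With MAN2B1 it was 1 of 2 members at or under a p-value of 0.01 there, as were 253 of the 836 loci (30.3%).

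LIPA encodes lysosomal acid lipase, which frees cholesterol and fatty acids from cholesteryl esters and triglycerides delivered by lipoproteins and is missing in Wolman disease. LIPA, at chromosome 10, 90973326 to 91011660 (hg19), had 238.6 FPKM in Scr control RNA and 139.8 FPKM with MYB silenced. It was by far the most abundant of the 7 and the 13th highest of all 836 loci in the control library. Its log2 ratio of -0.77 was the smallest in size among the 7, and its rank by size was 452 of the 516 lower loci. In the authors' deposited table its p-value was 0.04075. When ratios were centred on the median over listed loci, a set selected for change, the LIPA value turned to 0.03.

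The current RefSeq record of LIPA spans 201108 bases with distant start sites and encloses the interferon-induced IFIT genes. The deposited LIPA locus spans 38335 bases and overlapped 0 other listed loci. The 2 lipid-cutting genes thus differed in opposite ways. LIPA was 27.8 times the level of SMPD1 in the control and 7.72 times after silencing. That difference does not depend on a constant scaling factor between the libraries. It would change with scaling that varies with GC content, which is 42.6% for LIPA and 60.0% for SMPD1, and this was not tested.

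Among the proteases, CTSL1 encodes cathepsin L, a papain-family cysteine endopeptidase that degrades engulfed and autophagic protein and can be secreted. CTSL1, at chromosome 9, 90340882 to 90346384 (hg19), had 37.1 FPKM in Scr control RNA and 69.3 FPKM with MYB silenced. Its log2 ratio of 0.89 lay just under the 2-fold line, with 0.01865 as its p-value in the authors' deposited table. RefSeq lists 7 CTSL pseudogenes, of which 0 were in the table. The labels do not say how reads shared with such copies were assigned, so the level of CTSL1 is uncertain to that extent.

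CTSC encodes cathepsin C, also called dipeptidyl peptidase I, a papain-family enzyme that removes dipeptides from protein ends and activates serine proteases of granule-bearing blood cells. CTSC, at chromosome 11, 88026760 to 88070941 (hg19), had 28.98 FPKM in Scr control RNA and 15.8 FPKM with MYB silenced. Its log2 ratio was -0.85, and the authors' deposited table gives it a p-value of 0.0343. After centring on the median ratio of listed loci its value was -0.05. Cathepsin L transcripts were 1.28 times as abundant as cathepsin C transcripts in the control and 4.38 times after silencing. Of the blood cell markers, with which CTSC is often found, 0 of 12 were listed, so their levels were not analysed here.

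Summed over the 7 genes, the level was 333 FPKM for Scr control and 286 FPKM for MYB-silenced cells. LIPA alone made up 71.7% of the first sum and 48.9% of the second, while CTSL1 made up 11.2% and 24.2%. Without LIPA the sum of the other 6 was 94.4 FPKM and 146 FPKM, respectively. The sum therefore took its direction from 1 gene. The order of levels in the control was LIPA, CTSL1, CTSC, MAN2B1, SMPD1, NAGLU and IDUA. After silencing CTSC stood below MAN2B1 and SMPD1, and all other pairs kept their order. Whether neighbours in either order differ beyond replicate spread cannot be said from 1 library each.

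**Figure D2:**
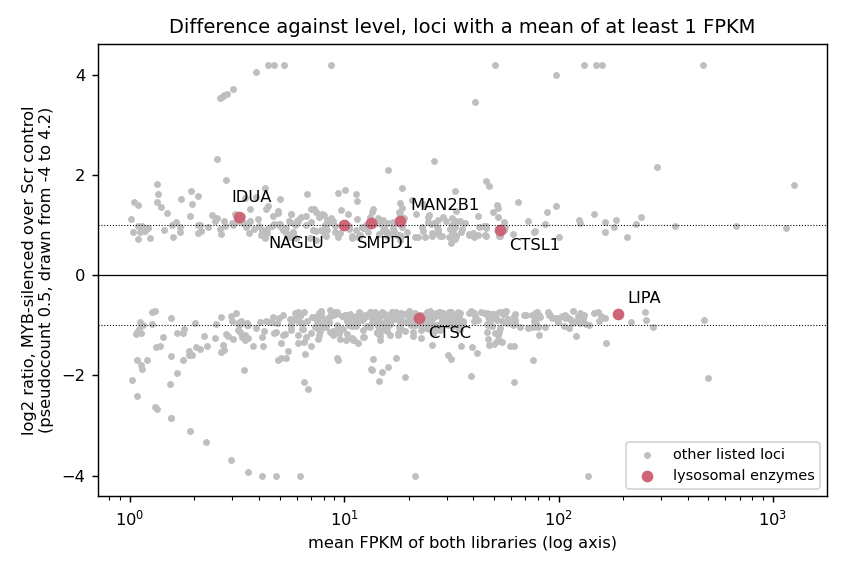
Log2 ratio of MYB-silenced over Scr control (pseudocount 0.5) against mean FPKM on a log axis for the 797 loci whose mean reached 1 FPKM, with the 7 enzymes in colour, a solid line at equal levels and dotted lines at 2-fold. Loci beyond -4 or 4.2 are drawn at the edge, and the enzymes lie within the 2 bands of listed loci, between -0.85 and 1.16.

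All 7 members passed the level filter, a mean of 1 FPKM or more over both libraries, as did 797 of the 836 loci. At 2-fold or more, 4 members were higher (IDUA, MAN2B1, SMPD1 and NAGLU) and 0 were lower. Of the 797 loci, 159 (19.9%) were higher and 197 (24.7%) lower by that much. The members' ratios were ordinary within the table. IDUA ranked 89, MAN2B1 120, SMPD1 142, NAGLU 161 and CTSL1 224 by size among the 320 higher loci, and CTSC ranked 354 among the 516 lower ones. The median log2 ratio of the 7 was 1.01, that of all listed loci -0.80 and that of the higher loci above the level filter 1.01.

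Direction in the table moved with the GC content of transcripts, and the direction of each member but CTSL1 was that of most loci in its GC bin. Median GC content was 60.4% for higher and 44.6% for lower loci, over 822 loci with a value. In the highest of 5 GC bins 88.5% of loci were higher, and IDUA (68.7% GC) and NAGLU (63.8%) fell there. MAN2B1 (60.2%) and SMPD1 (60.0%) were in the next bin, in which 51.2% were higher. LIPA (42.6%) and CTSC (45.3%) were in the second lowest bin, in which 12.8% were higher. CTSL1 (50.9%) was higher although 31.1% of its bin, the middle one, were. The part of GC content in these differences was not tested.

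**Figure D3:**
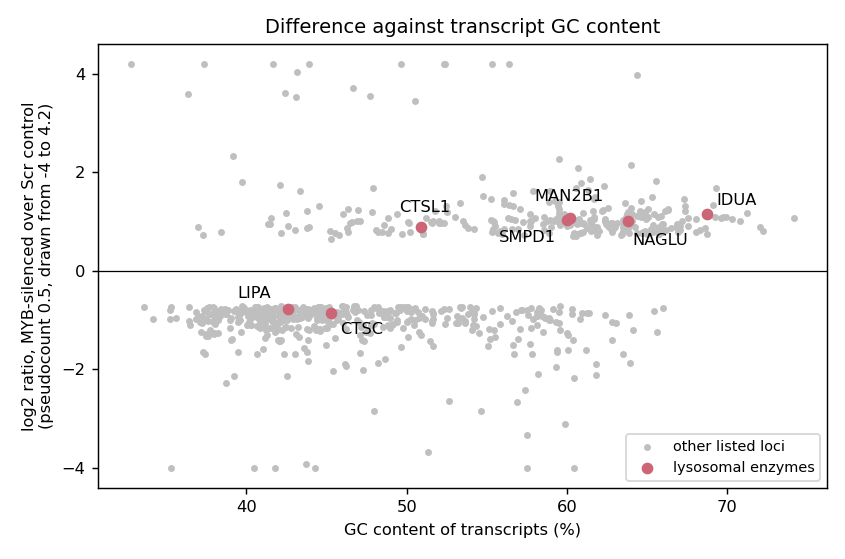
Log2 ratio (pseudocount 0.5) against the median GC content of a gene's transcripts in percent, for loci whose mean reached 1 FPKM, with the 7 enzymes in colour. Loci beyond -4 or 4.2 are drawn at the edge, and the 4 enzymes at 60.0% GC or more lie above 0, while LIPA and CTSC, at 42.6% and 45.3%, lie below it.

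The 3 enzyme lists, of glycan hydrolases, lipid hydrolases and proteases, hold 62 genes, of which 10 were listed, 8 higher and 2 lower, with a median log2 ratio of 0.94, beside 38.3% of all listed loci higher and a median of -0.80. The 7 members are among the 10, and the other 3, SGSH, ARSA and PLD3, were higher. SGSH, a sulfatase of heparan sulfate breakdown, had 8.25 FPKM (Scr control) and 16.2 FPKM (MYB-silenced), a log2 ratio of 0.93. ARSA, arylsulfatase A, which removes sulfate from the lipid sulfatide, was at 3.85 and 7.12 FPKM (log2 ratio 0.81). PLD3, a lysosomal protein of the phospholipase D family, was at 38.2 and 74.4 FPKM (log2 ratio 0.95). The lists counted ARSA with the glycan hydrolases and PLD3 with the lipid hydrolases. The transcripts of these 3, at 63.0% GC for SGSH, 66.0% for ARSA and 62.4% for PLD3, fell in the highest GC bin, in which 88.5% of loci were higher. DNASE2, a lysosomal nuclease gene, is on none of the 3 lists and was higher, at 22.9 and 40.5 FPKM (log2 ratio 0.81).

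The 10 listed enzymes of the 3 lists summed to 383.4 FPKM with the scrambled hairpin and 383.7 FPKM with the hairpin against MYB. Without LIPA the other 9 summed to 144.7 and 243.9 FPKM. Of genes chosen for other parts of the lysosome, 0 of 30 membrane proteins and 0 of 25 proton pump subunits were in the table. Also, 0 of 26 chosen genes for hydrolase delivery and 0 of 12 chosen inhibitors of cysteine cathepsins were there. These lists are not complete. The lysosomal membrane protein genes ATP13A2, at 15.7 and 26.9 FPKM, and GPR137B, at 11.9 and 22.2 FPKM, were outside them and higher. ATP13A2 was in the highest GC bin, in which 88.5% of loci were higher, and GPR137B in the middle one, in which 31.1% were. AP3M1, a subunit gene of the AP-3 adaptor that sorts cargo to the lysosome, was also outside them and was lower. It had 25.1 and 15.1 FPKM (log2 ratio -0.71) and was in the second lowest GC bin. Levels of genes without a row were not analysed here. Among 24 genes of the TFEB family and nutrient sensing, RRAGD, a Rag GTPase that helps recruit mTORC1 to the lysosome, was the only one listed. RRAGD had 16.2 FPKM (Scr control) and 27.96 FPKM (MYB-silenced), a log2 ratio of 0.77, at 42.1% GC. That is in the second lowest GC bin, in which 12.8% of loci were higher. This list is not complete either. GATSL3, an older symbol of the arginine sensor gene CASTOR1, was outside it and higher, at 8.35 and 28.9 FPKM (log2 ratio 1.73), in the highest GC bin.

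Of 44 autophagy genes, 2 were listed and both were higher by over 2-fold, beside 19.9% of the 797 loci above the level filter. GABARAPL1, a ubiquitin-like protein of the autophagosome membrane, was at 6.11 and 14.8 FPKM (log2 ratio 1.21). WIPI1, which binds phosphoinositide on forming autophagosomes, had 7.996 and 18.5 FPKM (log2 ratio 1.16). Both lay in the middle GC bin with CTSL1, at 51.8% and 49.4% GC. The list does not hold every gene with a part in autophagy. The mitophagy receptor gene BNIP3L, at 76.6 and 39.9 FPKM (log2 ratio -0.93), was not on it and was lower. So was BAG3, of chaperone-assisted autophagy, at 33.7 and 19.6 FPKM (log2 ratio -0.77).

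**Figure D4:**
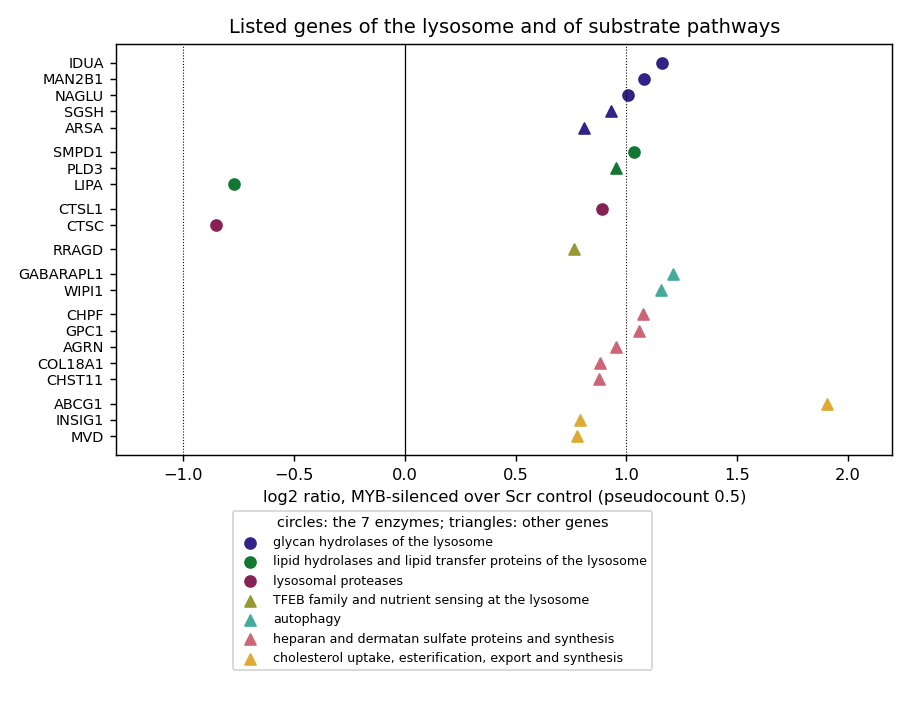
Log2 ratio of MYB-silenced over Scr control (pseudocount 0.5) for each listed gene of the lysosome, autophagy and substrate lists, with circles for the 7 enzymes, triangles for other genes, a solid line at equal levels and dotted lines at 2-fold. All points but LIPA at -0.77 and CTSC at -0.85 lie above 0.

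Genes that make or carry the substrates of these enzymes were looked at next. Of 50 genes of heparan and dermatan sulfate proteins and synthesis, 5 were listed and all 5 were higher (median log2 ratio 0.95), beside 38.3% of all listed loci. The heparan sulfate proteoglycan AGRN was at 28.95 and 56.5 FPKM, the membrane-anchored glypican GPC1 at 15.8 and 33.5 FPKM, and the basement membrane collagen COL18A1 at 37.4 and 69.4 FPKM. CHPF, which helps to extend chondroitin chains, was at 21.3 and 45.4 FPKM. CHST11, a chondroitin sulfotransferase gene, was below the level filter at 0.398 and 1.15 FPKM. Apart from CHST11, which was in the fourth GC bin, these genes were in the highest one, in which 88.5% of loci were higher. The direction shared by the 5 depends on which genes the list names. CHST3, another chondroitin sulfotransferase gene, was not on it and was lower, at 6.70 and 3.655 FPKM (log2 ratio -0.79). Of 21 N-glycan mannose processing genes and 31 genes of sphingomyelin and ceramide metabolism, the substrates of MAN2B1 and SMPD1, 0 were listed.

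Of 35 genes of cholesterol uptake, esterification, export and synthesis, 3 were listed and all 3 were higher, beside 38.3% of all listed loci. The sterol exporter ABCG1 was at 0.892 and 4.71 FPKM (log2 ratio 1.90). INSIG1, which holds the sterol sensor complex in the endoplasmic reticulum, had 30.7 and 53.6 FPKM, a log2 ratio of 0.79. The mevalonate pathway enzyme MVD had 20.6 and 35.6 FPKM, a log2 ratio of 0.78. MVD was in the highest GC bin, in which 88.5% of loci were higher. ABCG1 was in the fourth, in which 51.2% were, and INSIG1 in the middle one, in which 31.1% were. The control level of ABCG1 was under 1 FPKM, so its ratio is uncertain. The lists were chosen with earlier results of these data known, so their counts are descriptions.

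The locus most like each member was the one with the smallest Euclidean distance in log2(FPKM + 0.5) over the 2 libraries, out of 787 other single-gene loci above 0 in both. For CTSL1 it was COL18A1 (distance 0.011), and for CTSC it was KCTD9 at 29.1 and 15.7 FPKM (0.013). MAN2B1 was nearest to ZNF581 (0.036), IDUA to GDPD1 (0.058), SMPD1 to RTN4R (0.060) and NAGLU to MEIS3 (0.107). LIPA had 0 loci within a distance of 0.25, the nearest being HMGB1 at 286.6 and 149.7 FPKM (0.281), while CTSC had 39. With 2 libraries such likeness rests on 2 values per gene.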

How the data were processed

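RNA was sequenced from 1 Scr control and 1 MYB-silenced library. The deposited table holds FPKM values made by the authors. Its 13689 rows with an empty gene field were left out, and the 836 loci are the rows with a gene name. Whether the rows left out held values was not recorded. Per the submitters' processing notes, TopHat, Bowtie and Cufflinks, CASAVA 1.8.2 and the build hg19 were used. Their roles, the annotation, the strand setting and any scaling between libraries were not given in the sources used here. The authors also deposited a signed fold score, a log2 ratio without pseudocount, which differed from that of the FPKM values by at most 4.1e-05, and an unadjusted p-value. No counts are given, so depth is unknown and no interval was computed.

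Ratios were log2(FPKM + 0.5), MYB-silenced minus Scr control (Python 3.11.15, pandas 2.3.3). Counts of 2-fold differences used loci whose mean reached 1 FPKM. Starts were raised by 1, since RefSeq gene lengths fitted a start counted from 0 for 41 of 754 loci and one counted from 1 for 7. GC content is the median over GENCODE release 29 transcripts, found for 98.3% of loci and split into 5 bins of near-equal size. Promoter sequences are from RefSeq (GRCh38.p14). Counting and motif code was tested on simulated data.

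The 7 members and 17 gene lists were chosen with earlier results of these data known. All members, up to 4 loci per list by size of ratio besides members, and the nearest locus of each member are named. CHST11, outside that rule, was named after its values were seen. So were CHST3, BNIP3L, BAG3, ATP13A2, GPR137B, AP3M1, GATSL3, DNASE2, KRT13, KRT16 and KRT80, which are outside the lists. Alternatives were other pseudocounts, level filters, fold thresholds, centring and a stricter p-value.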

Additional observations from a re-analysis of the deposited data

How the results depend on the processing

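With 1 library per group no library could be left out. No paired analysis was possible because each group has 1 library. A value was taken to have moved when it changed by over 1.5-fold. Of 78 recomputed values, ratios and counts together, 59 did not reverse and moved less. Part of these could not have differed, so the tally is not a measure of stability. They include counts of members lower and higher under other pseudocounts, and member counts without the level filter, which all 7 passed. Pseudocounts of 0.1 and 1, or none (chosen after seeing the data), kept all 7 directions. This was so by construction, since the same constant is added to both values and cannot change the sign. With a pseudocount of 1, 2 members rather than 4 were 2-fold higher. Centring on the median ratio of the listed loci reversed LIPA to 0.029 and gave IDUA 1.96, NAGLU 1.804, MAN2B1 1.88, SMPD1 1.83, CTSL1 1.69 and CTSC -0.053. It left 1 member lower, and made 31 loci lower and 300 higher by 2-fold, by construction, since the subtracted median is that of genes selected for change. At an authors' p-value of at most 0.01, 2 members remained higher and 0 lower. At 1.5-fold the listed loci numbered 497 lower and 300 higher with 2 members lower, because every listed locus above the level filter differed by at least that much. At 3-fold they numbered 48 and 35, with 0 members higher. Depth is unknown, so IDUA, under 5 FPKM in both libraries, is the least certain level. Leaving out loci at 0 and extra contigs, also chosen after seeing the data, gave 182 lower and 139 higher loci.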
